A study of Rattus norvegicus with 6 samples.

Results

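The subunits of troponin, the calcium switch of striated muscle, were followed across the start of the heartbeat in 8 genes: Tnnt1, Tnnt2 and Tnnt3 of troponin T, Tnni1, Tnni2 and Tnni3 of troponin I, and Tnnc1 and Tnnc2 of troponin C. The members were the probes whose gene name on the array was one of these symbols, without regard to case, which gave 10 probes among 30367, with 2 probes each for Tnnt1 and Tnnt2 and 1 for each of the others. Heart primordia of Wistar rats (spelled Wister in the labels) had been dissected on embryonic day 10. In the pre-heartbeat group the primordium was flat at its center in embryos with 3 to 4 somites, and in the post-heartbeat group it was raised in embryos with 4 to 5 somites. RNA of the primordia in 3 samples of each group, described as biological replicates, was hybridized to 1-color Agilent rat arrays, 1 array per sample. The labels name no treatment or genetic change in either group, and the number of primordia behind an array is not given in the sources used here.

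Troponin sits on the actin filament with tropomyosin. Troponin C binds calcium, troponin I holds back the interaction of actin with myosin until it does, and troponin T ties the complex to tropomyosin. Each subunit has isoforms named after the muscle of the adult: Tnnt2 and Tnni3 are the cardiac forms, Tnnt1 and Tnni1 the slow skeletal forms, Tnnt3, Tnni2 and Tnnc2 the fast skeletal forms, and Tnnc1 is shared by slow skeletal muscle and heart. The embryonic heart is known to use mainly Tnni1, which is later replaced by Tnni3.

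Because the paralogs are alike in sequence, the 60-base probes that read them are shown first. The probe of Tnnt2 at chr13:48884921-48884980, that of Tnnt1 at chr1:68043171-68043230 and that of Tnnt3 at chr1:202758664-202758723 read the same stretch of their transcripts, and capitals mark the 24 positions at which the 3 probes were not all identical. Coordinates come from the annotation of the array, which is on rn4, and these 3 probes lie on the plus strand. Gene models of that build were not used here.
Tnnt2: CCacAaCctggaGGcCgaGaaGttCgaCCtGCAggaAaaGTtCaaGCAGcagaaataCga
Tnnt1: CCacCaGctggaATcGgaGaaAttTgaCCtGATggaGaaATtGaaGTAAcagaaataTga
Tnnt3: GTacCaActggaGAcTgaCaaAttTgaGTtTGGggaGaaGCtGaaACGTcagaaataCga
The Tnnt2 probe was identical to the Tnnt1 probe at 45 of 60 bases and to the Tnnt3 probe at 40, and the Tnnt1 and Tnnt3 probes shared 41.

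The troponin C probes, at chr16:6642153-6642212 on the plus strand for Tnnc1 and chr3:155807460-155807519 on the minus strand for Tnnc2, overlapped over 59 bases of the paralogous stretch, 48 of them identical (81.4%). Capitals mark the 11 that differed.
Tnnc1: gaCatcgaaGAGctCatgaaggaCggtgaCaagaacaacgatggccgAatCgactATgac
Tnnc2: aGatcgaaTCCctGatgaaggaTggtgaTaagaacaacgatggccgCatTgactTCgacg
The probes of Tnni3 and Tnni1 read different stretches, so their letters are given without capitals. The Tnni3 probe lay between 68030210 and 68030735 on chromosome 1, a span longer than the probe itself, and the Tnni1 probe lay at chr13:48840073-48840132.
Tnni3: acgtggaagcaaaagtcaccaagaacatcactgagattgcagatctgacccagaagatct
Tnni1: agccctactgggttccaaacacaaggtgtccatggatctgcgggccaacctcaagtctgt
Whether a probe also bound the transcript of a paralog was not tested.

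Each of the 10 probes exceeded the background clearly on all 6 arrays (the scanner's well above background call), with 0 saturated spots. The values below are log2 of the processed signal less the 75th percentile of the same array, which was between 1145.76 and 1701.98 intensity units. The arrays lay on 2 slides. Slide 1 carried the first pre-heartbeat replicate with post-heartbeat replicates 1 and 2, and slide 2 carried the others, which were pre-heartbeat replicates 2 and 3 and the third post-heartbeat replicate. In a principal component analysis of all tested probes the slides came apart on the first component (60.3%) and the groups on the second (16.6%). A second fit with the slide as a block is therefore reported for every probe. In the words used here, a probe rose or fell where its adjusted p from limma was under 0.05 in the fit named. A primordium is a mixture of cells, so more cells that express a gene and more RNA per cell cannot be told apart.

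Across the start of the heartbeat, Tnni3 was higher by 2.62 fold and was the 1 troponin gene of 8 that rose in the fit without the slide, where 23 of 19299 tested probes (0.119%) did. With the slide as a block, Tnni3, Tnnt1 (with both probes) and Tnnc2 rose, 3 of 8 genes, beside 1.16% of the tested probes. By the selection used in the study's methods (a change of at least 1.5 fold and an unadjusted p under 0.05 in Tukey's test), 6 of 8 genes were higher, all except Tnnt2 and Tnnt3, beside 1.89% of all tested probes, and 0 were lower, beside 1.15%. On the ratios deposited by the authors this selection gave 5 genes higher. The post-heartbeat arrays were all above the pre-heartbeat arrays for 8 of 10 probes and 7 of 8 genes, against 5.38% of tested probes, and all below for 1 probe, that of Tnnt3, against 6.14%. The median log2 fold change of the 10 probes was 0.71, and that of all tested probes was -0.03. No troponin gene fell without the slide or with it as a block, beside 0.0207% and 0.461% of all tested probes. At an unadjusted limma p under 0.05 without the slide, 8 of the 10 probes were higher, beside 3.91% of all tested probes, and 1, that of Tnnt3, was lower, beside 3.1%.

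**Figure D1:**
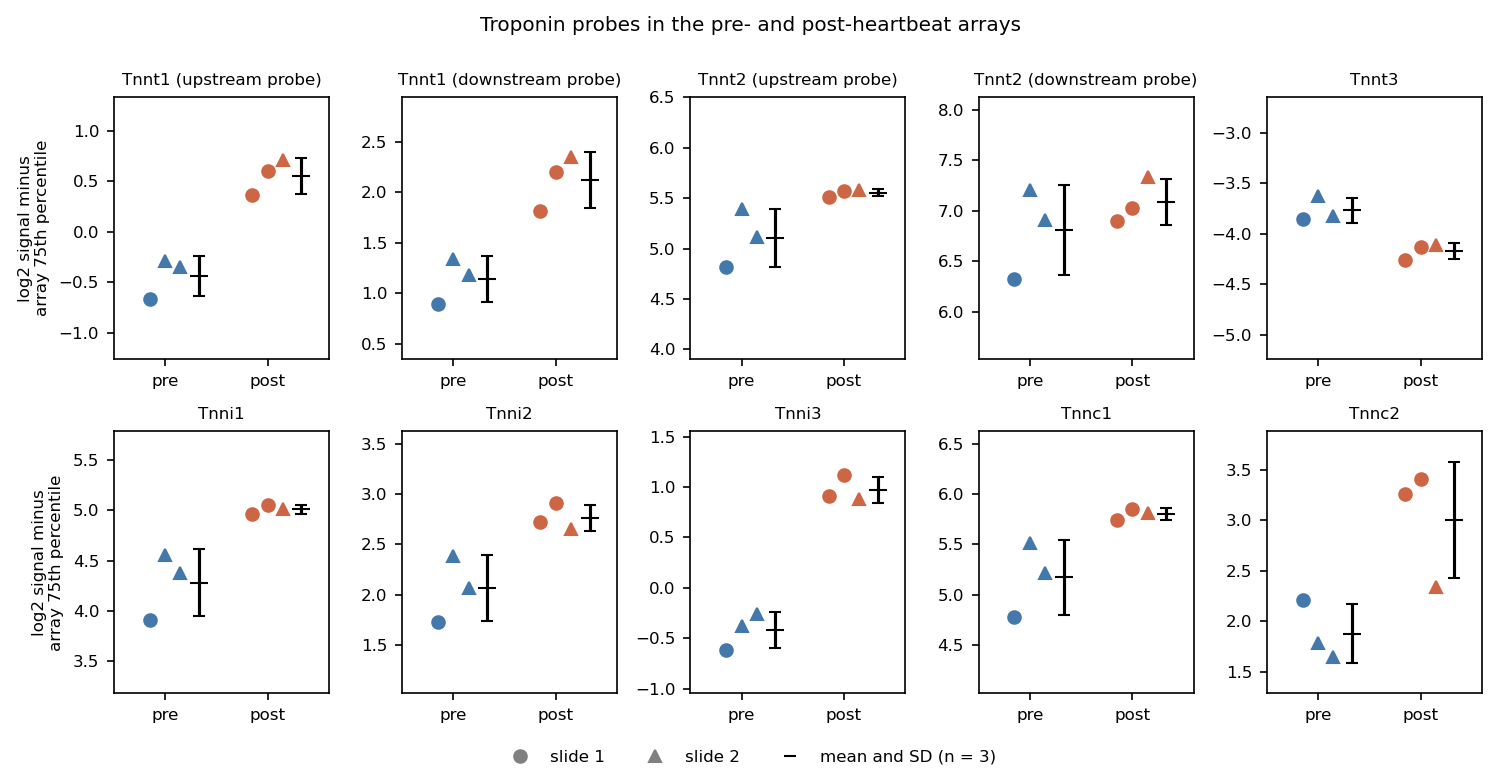
Signal of each troponin probe on every array, as log2 of the processed signal minus the 75th percentile of the array (vertical axis, the same span in every panel), with 3 pre-heartbeat (blue) and 3 post-heartbeat (orange) arrays, circles for slide 1 and triangles for slide 2, and the mean with SD in black. The groups overlap for the downstream Tnnt2 probe, and the post-heartbeat arrays lie below the others for Tnnt3 and above them in the other panels.

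Among the troponin T genes, the slow skeletal form Tnnt1 rose with the slide as a block, and the cardiac form Tnnt2 and the fast skeletal form Tnnt3 passed in neither fit. The upstream Tnnt1 probe, the one printed above, read -0.67, -0.29 and -0.35 on pre-heartbeat replicates 1 to 3 and 0.36, 0.60 and 0.71 on the post-heartbeat replicates. The groups did not overlap, with the lowest value on pre-heartbeat replicate 1. The means were -0.44 ± 0.20 and 0.56 ± 0.18 (SD, n = 3 each), a log2 fold change of 0.99 ± 0.169 (SE), or 1.99 fold, with a limma adjusted p of 0.109, while the slide as a block gave 1.09 (limma adjusted p = 0.0151). The downstream Tnnt1 probe, at chr1:68045083-68045142, read 0.89, 1.34 and 1.18 before and 1.82, 2.20 and 2.35 after. Its groups did not overlap either, and its change was nearly the same, 0.98 ± 0.197 (SE; limma adjusted p = 0.163) and 1.10 with the slide as a block (limma adjusted p = 0.0195). Both probes thus read the rise of the slow skeletal isoform as close to 2 fold, with within-slide differences between 1.03 and 1.15.

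Tnnt2, the isoform that anchors the complex in the adult heart, differed less, and its probes did not separate the groups alike. The upstream probe read 4.82, 5.40 and 5.11 in the pre-heartbeat group and 5.51, 5.57 and 5.58 after the heartbeat had begun. There was no overlap, and the post-heartbeat arrays were closer together (SD 0.0355) than the pre-heartbeat arrays (SD 0.29). This amounted to 0.45 ± 0.177 (SE) on the log2 scale, which did not pass (limma adjusted p = 0.659). The downstream probe, at chr13:48885756-48885815, read 6.32, 7.20 and 6.90 against 6.90, 7.03 and 7.34, so that the groups overlapped. Its log2 fold change was 0.28 ± 0.251 (SE), with an exact two-sided permutation p of 0.5 and a limma adjusted p of 0.866. Blocked on the slide, the differences were 0.53 (limma adjusted p = 0.225) and 0.46 (limma adjusted p = 0.319), and without pre-heartbeat replicate 1, the array with the lowest Tnnt2 signal, they were 0.30 and 0.03 without the block.

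Tnnt3, the fast skeletal isoform, was lower on the post-heartbeat arrays. It read -3.85, -3.62 and -3.83 before and -4.26, -4.13 and -4.11 after, with no overlap between the groups. The log2 fold change was -0.40 ± 0.139 (SE), or 1.32 fold lower, with a limma adjusted p of 0.534, and -0.37 with the slide as a block (limma adjusted p = 0.399). It was the 1 troponin gene with a negative difference, within both slides as well as overall.

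**Figure D2:**
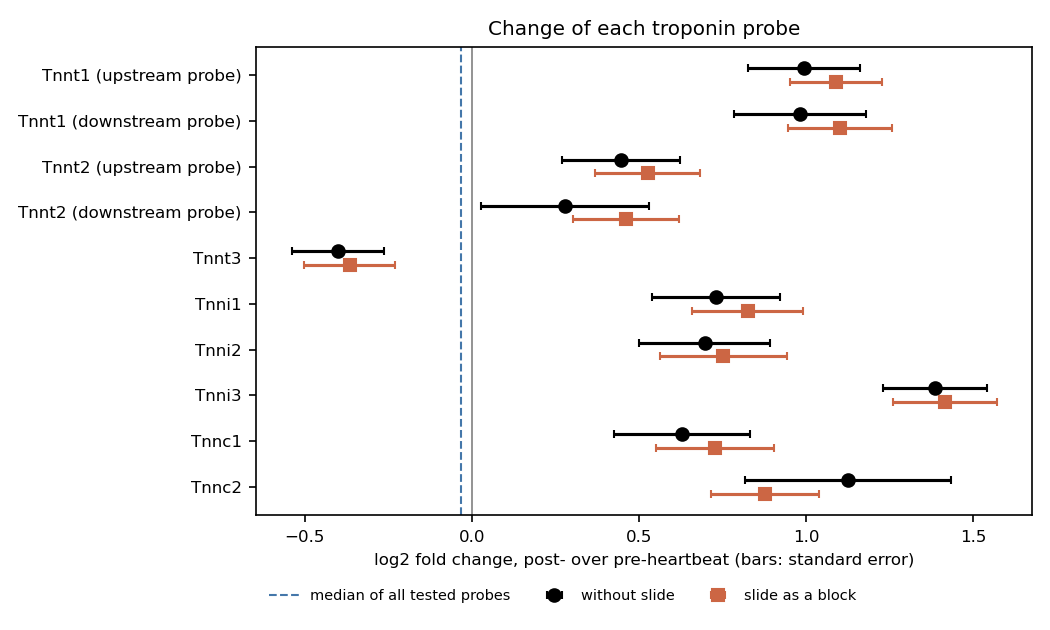
Log2 fold change, post-heartbeat over pre-heartbeat (horizontal axis), of the 10 troponin probes with its standard error, from limma without the slide (black circles) and with the slide as a block (orange squares), and the median of all tested probes (dashed line, -0.03). The values run from -0.40 for Tnnt3 to 1.39 for Tnni3, and the slide moves the Tnnc2 estimate down, to 0.88.

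Of the troponin I genes, the adult cardiac form had the largest change of the 8 genes over all arrays, although without post-heartbeat replicate 3 Tnnc2 stood at 1.46 and Tnni3 at 1.43, and without pre-heartbeat replicate 1 both stood at 1.29. Tnni3 read -0.61, -0.38 and -0.26 on the pre-heartbeat arrays and 0.91, 1.12 and 0.89 on the post-heartbeat arrays. The gap between the groups, 1.15, was wider than the range of the pre-heartbeat arrays, 0.351. Each value was the mean of 10 spots (9 on post-heartbeat replicate 3), whose SD on an array was at most 0.076. The log2 fold change was 1.39 ± 0.156 (SE), with a limma adjusted p of 0.0423, and 1.41 with the slide as a block (limma adjusted p = 0.00994). It ranked 73 of 19299 tested probes by size of the rise, and the within-slide differences were 1.63 and 1.20. The call rested on all 6 arrays: leaving out any 1 of them gave limma adjusted p between 0.102 and 0.281, with a log2 fold change between 1.29 and 1.46, and Tnni3 passed in 5 of 16 alternatives with a test.

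Tnni1, the slow skeletal isoform of the embryonic heart, read 3.91, 4.55 and 4.38 before and 4.96, 5.05 and 5.02 after. Every post-heartbeat array was higher, and the 3 post-heartbeat values spanned 0.0904. The log2 fold change was 0.73 ± 0.191 (SE), or 1.66 fold (limma adjusted p = 0.3), and 0.83 with the slide as a block (limma adjusted p = 0.0595). Tnni2, the fast skeletal isoform at chr1:202690056-202690115, read 1.73, 2.39 and 2.07 before and 2.72, 2.91 and 2.66 after. Its groups did not overlap, and its change of 0.70 ± 0.196 (SE; limma adjusted p = 0.354) was close to that of Tnni1. Blocked on the slide it was 0.75 (limma adjusted p = 0.132).

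Of the troponin C genes, Tnnc1, the calcium sensor of the heart and of slow muscle, read 4.78, 5.52 and 5.22 in the pre-heartbeat group and 5.74, 5.86 and 5.81 after it. All post-heartbeat arrays were higher. The log2 fold change was 0.63 ± 0.204 (SE), or 1.55 fold (limma adjusted p = 0.474), and 0.73 with the slide as a block (limma adjusted p = 0.118). Tnnc2, its fast skeletal counterpart, read 2.21, 1.78 and 1.65 before and 3.26, 3.41 and 2.34 after. The lowest post-heartbeat array, replicate 3 on slide 2, was 0.134 above the highest pre-heartbeat array, replicate 1 on slide 1. In Tnnc2 slide 2 was lower than slide 1 in both groups, by -0.49 and -0.99, while the other 9 probes were higher on slide 2 among the pre-heartbeat arrays. Its log2 fold change was 1.13 ± 0.308 (SE), or 2.18 fold (limma adjusted p = 0.329), and 0.88 with the slide as a block (limma adjusted p = 0.0430).

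The size of these differences varied between the slides. All 20 within-slide differences, 10 probes on 2 slides, had the sign of the pooled difference. For the 8 probes that were higher and the 1 that was lower without overlap, this sign was fixed by the separation of the groups. Each within-slide difference rests on 1 array in 1 of the groups, so a bearing of the slides on the direction was not tested. Pre-heartbeat replicate 1, the pre-heartbeat array on slide 1, was the lowest of its group for 9 of 10 probes, and without it the median log2 fold change of the probes was 0.54 and 2 genes, instead of 6, passed the selection of the methods. Leaving out post-heartbeat replicate 1 or post-heartbeat replicate 2 instead also gave 2 genes.

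The balance between isoforms was compared as the difference of 2 probes within each array, so that what an array does to both cancels. For each gene the probe with the highest mean signal was used, and 7 pairs were compared by an exact two-sided permutation test, in which 3 arrays against 3 cannot go below 0.1. From the pre-heartbeat to the post-heartbeat group, Tnni3 over Tnni1 was higher by 0.66 ± 0.134 (SE, log2) and Tnni3 over Tnni2 by 0.69 ± 0.142, and the shift of Tnni1 over Tnni2 was 0.03 ± 0.0776, with overlapping groups (p = 0.7, exact permutation). Relative to the pre-heartbeat mean, Tnni3 over Tnni1 stood at 0.18, -0.23 and 0.06 before the heartbeat and at 0.64, 0.76 and 0.57 after it, without overlap (p = 0.1, exact permutation). Each of the other pairs with Tnni3 or Tnnt3 also stood apart without overlap (p = 0.1, exact permutation), as did Tnnt2 and Tnnt1. Adjusted over the 7 pairs by the Benjamini-Hochberg method, the exact permutation p of these pairs was 0.14. The pairs share genes and are not independent, and the share among pairs of other probes was not computed.

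In troponin T, the cardiac form was lower relative to the slow skeletal form and higher relative to the fast skeletal form on all post-heartbeat arrays. Tnnt2 over Tnnt1 differed by -0.71 ± 0.149 (SE, log2), with -0.24, 0.19 and 0.05 relative to the pre-heartbeat mean before the heartbeat and -0.59, -0.84 and -0.68 after it. Tnnt2 over Tnnt3 was higher by 0.68 ± 0.226 and Tnnt1 over Tnnt3 by 1.38 ± 0.138. For Tnnc1 over Tnnc2 the shift was -0.50 ± 0.494, with overlapping groups (p = 0.2, exact permutation), and it moved by -0.12 and -0.19 within the slides. Leaving out single arrays moved the troponin C difference between -0.86 and -0.28.

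**Figure D3:**
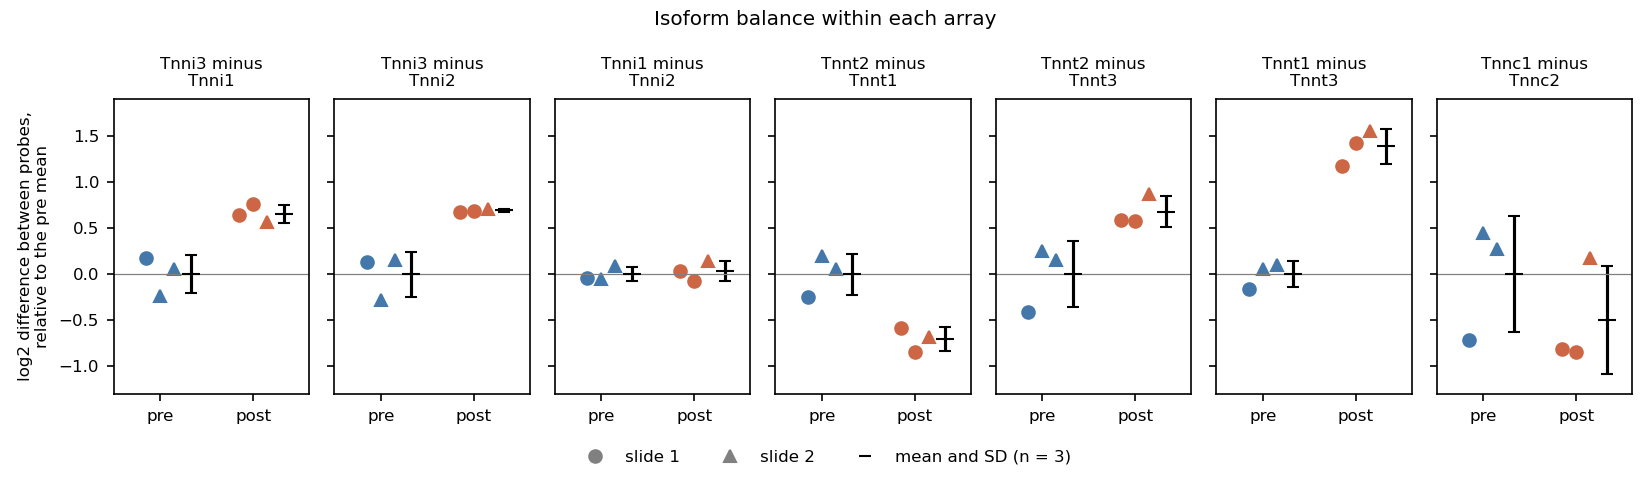
Difference between the log2 signals of 2 isoforms of a subunit on each array, relative to the mean of the pre-heartbeat arrays (vertical axis, log2), for 3 pre-heartbeat (blue) and 3 post-heartbeat (orange) arrays, circles for slide 1 and triangles for slide 2, with the mean and SD in black. The post-heartbeat arrays lie apart for 5 of 7 pairs, which share genes, and the Tnni1 to Tnni2 and Tnnc1 to Tnnc2 panels overlap.

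The troponin genes lie in pairs of 1 troponin I and 1 troponin T gene. On rn4, 13 kb lay between the nearest probes of Tnni3 and Tnnt1 on chromosome 1, 44.8 kb between those of Tnni1 and Tnnt2 on chromosome 13, and 68.6 kb between those of Tnni2 and Tnnt3 on chromosome 1. In RefSeq on GRCr8, 0 protein-coding genes lie between Tnni3 and Tnnt1, 1 (Lad1) between Tnni1 and Tnnt2, and 2 (Lsp1 and Prr33) between Tnni2 and Tnnt3. The adjacent pair Tnni3 and Tnnt1 held the only troponin I and troponin T genes that rose with the slide as a block, and in the third pair Tnni2 was higher by 0.70 while Tnnt3 was lower by -0.40.

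RefSeq promoter windows on GRCr8 were found for 6 of the 8 genes, with 7 windows because Tnnt2 has 2. Tnnt3 and Tnnc1 had none. The 250 bases before the start of transcription were searched on both strands for GATAA (the core bound by GATA factors), CATTCC (the M-CAT core), CANNTG (the E-box), TATAAA, and the MEF2 and CArG boxes. Those of the adjacent genes Tnni3 and Tnnt1 and the first one of Tnnt2 are shown, with matches to CATTCC and TATAAA in capitals, and likewise those to GATAA, which on the other strand reads TTATC. They lie at chr1:78342321-78342570, chr1:78348785-78349034 and chr13:49818873-49819122, all on the plus strand.
Tnni3: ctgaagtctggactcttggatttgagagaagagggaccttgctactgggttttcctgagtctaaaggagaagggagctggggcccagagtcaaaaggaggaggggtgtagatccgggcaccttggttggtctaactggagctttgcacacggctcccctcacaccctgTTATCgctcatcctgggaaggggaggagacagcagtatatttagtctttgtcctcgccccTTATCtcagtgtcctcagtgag
Tnnt1: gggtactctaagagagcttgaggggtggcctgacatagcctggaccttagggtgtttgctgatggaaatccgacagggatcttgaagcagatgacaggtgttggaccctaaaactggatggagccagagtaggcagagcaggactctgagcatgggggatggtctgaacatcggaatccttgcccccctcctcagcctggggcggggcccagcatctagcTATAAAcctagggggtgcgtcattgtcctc
Tnnt2: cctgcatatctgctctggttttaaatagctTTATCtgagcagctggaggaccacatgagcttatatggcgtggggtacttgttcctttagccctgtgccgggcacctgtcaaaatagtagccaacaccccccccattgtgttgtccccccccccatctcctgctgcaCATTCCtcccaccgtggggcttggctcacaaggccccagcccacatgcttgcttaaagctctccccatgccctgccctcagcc
The Tnni3 window held GATAA in 2 places, starting at -82 and -22, the first Tnnt2 window held it at -220, and 23.5% of 33469 promoter windows held it. CATTCC stood in the first Tnnt2 window at -83, against 12.1% of all windows, and TATAAA in the Tnnt1 window at -30 and the Tnni2 window at -72, against 12.9%. E-boxes occurred in every troponin window except that of Tnni3, and in 65.5% of all windows. No troponin window held the letters of a MEF2 box (2.96% of all windows) or a CArG box (1.5%). A match is a run of letters, and binding was not measured.

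Beside troponin, 15 regulators of the early heart were read, such as Nkx2-5, Gata4 and Tbx5. All 15 were well above background on every array, as were 18242 of all 30367 probes. Markers of other tissues, such as Ttr, Tcf15 and Kdr, were so too, and the label of the tissue was not tested by this. Their median log2 fold change was 0.26, and 0 of 15 rose or fell in either fit. Of all tested probes, 0.119% rose and 0.0207% fell without the slide, and 1.16% rose and 0.461% fell with it. Nkx2-5 and Gata4 read 0.67 and 0.62 higher in the post-heartbeat group without the slide, with limma adjusted p of 0.866 and 0.813 and overlapping groups. With the slide as a block they stood at 0.35 and 0.42. Without it, 12 of the 15 had a positive difference, and Tbx20, Isl1 and Mef2a had -0.45, -0.43 and -0.02.

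The partners of troponin on the thin filament were higher beside it in part. Of 18 such genes, 15 were tested, with a median log2 fold change of 0.59 without the slide. In that fit 0 rose, against 0.119% of all tested probes, and 7 rose with the slide as a block, against 1.16%. With the slide as a block these were Lmod2 (1.52, limma adjusted p = 0.00994), which elongates actin filaments, the skeletal actin Acta1 (1.25, limma adjusted p = 0.0179), the filament cap Tmod1 (1.07, limma adjusted p = 0.0310), the Z-disk protein Actn2 (0.99, limma adjusted p = 0.0324), Nebl (0.84), the tropomyosin Tpm1 (0.84, limma adjusted p = 0.0486) and Cap2 (0.83). The cardiac actin Actc1 read 7.02, 7.89 and 7.63 before and 7.83, 7.89 and 8.04 after. Like Tnnt2 it was not called, at 0.41 ± 0.235 (SE, log2) and a limma adjusted p of 0.866. Tpm2, Tpm3, Tpm4, Tmod2 and Tmod3 had differences from -0.01 to -0.44 without the slide, and none passed in either fit. With the slide as a block Tpm4 turned to 0.19, and the other 4 stayed below 0.

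Of 14 genes that bring calcium to troponin or take it away, 11 were tested, and 3 rose without the slide, beside 0.119% of all tested probes. They were Pln, which restrains the calcium pump of the sarcoplasmic reticulum, with 2.39 ± 0.177 (SE, log2; limma adjusted p = 0.0179), the fast muscle calcium pump Atp2a1 with 1.98 ± 0.174 (limma adjusted p = 0.0199), and the calcium store protein Casq1 with 1.71 ± 0.158 (limma adjusted p = 0.0238). Pln read -2.69, -2.68 and -2.51 before and -0.51, 0.04 and -0.25 after, a gap wider than the spread of either group. With the slide as a block the calcium channel genes Cacna1c (0.86, limma adjusted p = 0.0440) and Cacna1d (0.99, limma adjusted p = 0.0202) and Hrc (0.75, limma adjusted p = 0.0441) rose too, 6 of 11 in all beside 1.16% of all tested probes, and the list had a median of 0.80 without the slide. The cardiac calcium pump Atp2a2 and the release channel Ryr2 differed by -0.09 ± 0.136 and -0.03 ± 0.261.

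Kinases and phosphatases known to act on troponin or near it were read in the same way. Of 17 genes, 15 were tested, 0 rose or fell without the slide, where 0.119% of all tested probes rose, and 1, Prkg1, rose with it (0.73, limma adjusted p = 0.0470), where 1.16% did. The median log2 fold change was 0.03, beside -0.03 for all tested probes. Tnni3k, a kinase that binds troponin I, was not well above background on any array.

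**Figure D4:**
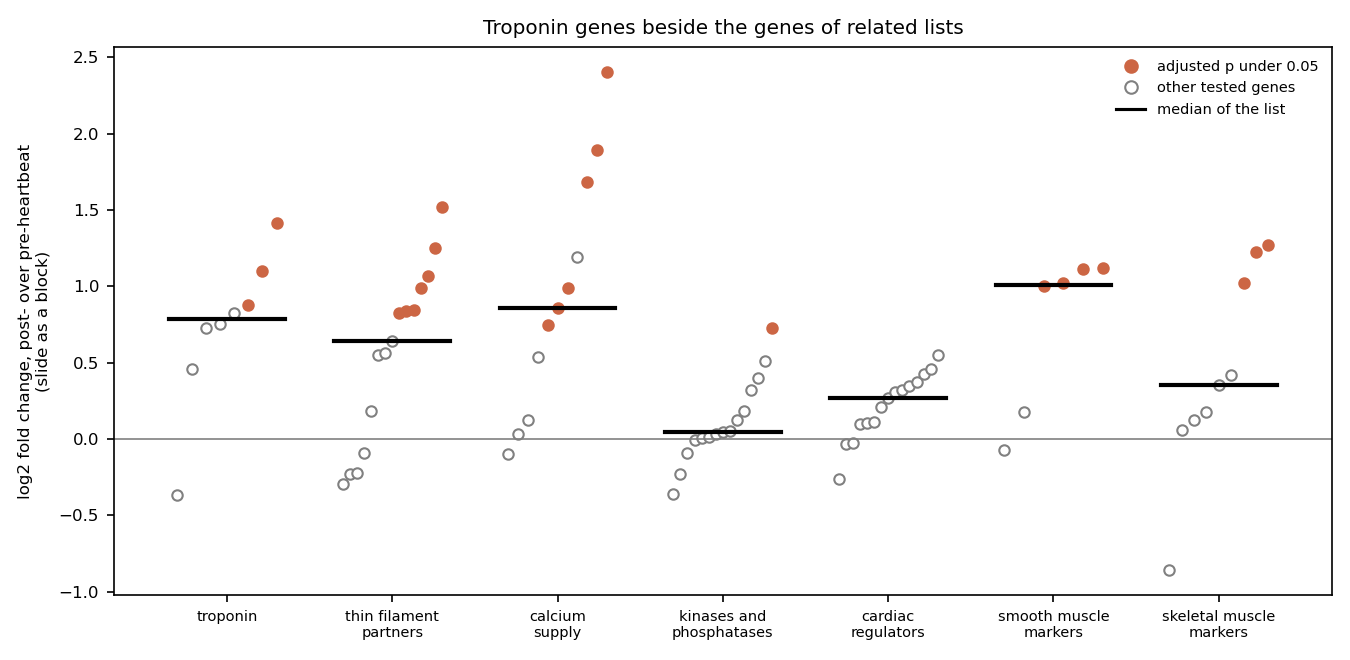
Log2 fold change, post-heartbeat over pre-heartbeat with the slide as a block (vertical axis), of each tested gene of 7 lists, each in order of size, with filled points where the limma adjusted p was under 0.05 and a line at the median of the list. The troponin genes spread from -0.37 to 1.41 around 0.79, between the calcium supply list (median 0.86) and the thin filament partners (0.64).

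As several troponin genes belong to skeletal muscle in the adult, markers of other muscle were read beside them. Of 17 skeletal muscle markers, 9 were tested, and 0 rose without the slide, beside 0.119% of all tested probes. With it as a block 3 rose, Myh8 (1.27), Ckm (1.22) and Mylpf (1.02), beside 1.16% of all tested probes. Actn3, of fast fibers, differed the other way, by -0.90 (limma adjusted p = 0.306) and -0.86 with the slide as a block. Its groups did not overlap, beside 6.14% of all tested probes that were lower without overlap. By the selection of the methods Myh8 and Mylpf were higher, beside 1.89% of all tested probes, and Actn3 was lower, beside 1.15%. The regulators Myod1, Myf6 and Pax7 and the adult myosins Myh1 and Myh2 were, with Mybpc1, the 6 markers not well above background on any array. The regulators Myf5 and Myog were well above it on all arrays and differed by 0.38 and -0.02. The summed level of the markers, in multiples of the 75th percentile of the array, was 3.3 to 7.25 in the pre-heartbeat group and 9.25 to 18.2 in the post-heartbeat group. Myh8 alone made up 79.8% to 94.6% of that sum, and the rest of the 16 markers on the array summed to 0.605 to 0.666 before and 0.833 to 1.02 after. Of 6 smooth muscle markers, all were tested, and 0 rose without the slide, beside 0.119% of all tested probes. With it as a block 4 rose, Cnn1, Tagln, Myh11 and Acta2, by 1.0 to 1.12, beside 1.16%. The summed level of the 6 smooth muscle markers was 4.81 to 5.27 before and 7.84 to 10.2 after.

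The markers of cells beside the heart were read as sums over the markers on the array, each of which was mostly 1 gene. The summed level of 8 endoderm markers was 43.3 to 47.3 before and 29.2 to 37 after, 74.4% to 93% of it from Ttr. Without Ttr the endoderm sum was 3.32 to 11.1 before and 5.07 to 7.82 after. The summed level of 6 endothelial markers was 15.1 to 16.1 before and 10.3 to 12.2 after, 82.9% to 91% of it from Kdr, and without Kdr it was 1.46 to 2.36 before and 1.61 to 2.08 after. No gene of these lists passed the limma threshold in either fit. Without the slide 0.119% of all tested probes rose and 0.0207% fell, and with it 1.16% rose and 0.461% fell. Ttr and Kdr, at -0.58 and -0.55, were lower on all post-heartbeat arrays, beside 6.14% of all tested probes. Of the neural ectoderm markers, Otx2 fell by 1.56 (log2; limma adjusted p = 0.0199). Otx2 made up 71.7% to 93.2% of the sum over 5 markers, which was 6.37 to 7.3 before and 2.45 to 2.97 after. Without Otx2 that sum was 0.432 to 1.21 before and 0.489 to 0.841 after. Zic1 was not above background on any array. The 8 paraxial mesoderm markers summed to 21.7 to 24.1 before and 25.1 to 26.7 after, 60% to 62.9% of it from Tcf15. Without Tcf15 they summed to 8.68 to 9.31 before and 9.57 to 10 after. The 6 erythroid markers summed to 0.648 to 1.49 before and 1.69 to 1.91 after, 73.1% to 92.6% of it from Hbb. Without Hbb they summed to 0.135 to 0.263 before and 0.124 to 0.22 after. No gene of the paraxial mesoderm and erythroid lists passed the limma threshold in either fit, beside the same shares of all tested probes. Hbb, 2.32 fold higher (limma adjusted p = 0.361), was higher by the selection of the methods, beside 1.89% of all tested probes. Meox2, Mesp2, Hbe1 and Gata1 were not above background on any array. The part of these levels in the troponin differences was not tested.

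The genes whose course over the 6 arrays was most like that of a troponin gene were named by the root mean square of the difference of centered profiles, over 11745 genes. Closest to Tnni3 were Mybphl (0.0848 log2), Nppb (0.095), Eno3 (0.118), Dbh (0.123) and Aqp1 (0.127). Nppb, which encodes a natriuretic peptide of heart muscle, rose by 1.40 (limma adjusted p = 0.0423), and Eno3, the muscle enolase, rose by 1.27 (limma adjusted p = 0.0364). Aqp1 rose by 1.26 (limma adjusted p = 0.0423). Mybphl and Dbh did not pass without the slide (limma adjusted p = 0.0788 and 0.0502), where 0.119% of all tested probes rose. All 5 rose with the slide as a block, beside 1.16%. As the 5 were picked for their likeness to Tnni3, which rose in both fits, changes of similar size follow from the picking. For Tnnc1 the 5 closest were Smyd1 (0.0554), Tnni1 (0.0642), Fhl2 (0.0662), Cryab (0.0699) and Fitm1 (0.0742), and for Tnni1 they were Tpm1 (0.0368), Gyg1 (0.057), Ldhb (0.0584), Tnnc1 (0.0642) and Fhl2 (0.0668). Tnni1 and Tnnc1, which encode subunits of one complex in the embryonic heart, were thus among the 5 closest genes of each other. Closest to Tnnt2 were Abra (0.0546), Casr (0.055), Kcnj5 (0.0589), Prss23 (0.0669) and Slc46a3 (0.0719), none of which passed. Array, slide and group are shared by all of these profiles, and likeness over 6 arrays is a description.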

How the data were processed

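The authors extracted total RNA from heart primordia, labeled it with cyanine dye, hybridized it to rat arrays and read the spots with Agilent Feature Extraction 10.7.3.1, per the labels. The deposited values used are processed signals, an intensity for each spot after background subtraction and before any normalization between arrays. The authors also deposited ratios on a linear scale, shifted to the 75th percentile of each array and divided by a baseline value per probe. The deposited flags for outlier, saturated and well above background spots are scored by the scanner software (other columns). The number of arrays limits the precision.

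Control and outlier spots were left out, log2 signals less the 75th percentile of the array were averaged over the spots of a probe, and a probe was tested if, in 1 group or both, at least 50% of its spots were well above background on each of the 3 arrays (19299 of 30367, 2 of them lacking a value on at least 1 array). Groups were taken from the sample titles. All tested probes were fitted with limma 3.58.1 in R 4.3.3 and adjusted by the Benjamini-Hochberg method (threshold 0.05), and figures were drawn with matplotlib 3.10.9. In the selection of the methods, the Tukey test with 2 groups equals the pooled comparison of means. The fit was tested on simulated data. A listed gene was represented by its tested probe with the highest mean signal. Genes named were all members, list members past the threshold with or without the slide, and the 5 closest profiles of Tnnt2, Tnni3, Tnnc1 and Tnni1. Other genes, such as Nkx2-5, Actc1, Atp2a2, Actn3 or Ttr, were named after their values were seen. Members, lists and tests were chosen with earlier results of these data known, and the lists were written from general knowledge. Of the list genes, Prkd1, Srl, Ryr1, Nfatc1, Hba1 and Sox1 were not found by symbol on the array. Alternatives were the slide or the replicate number as a block, values within slides, normexp (offset 50), quantile normalization, the percentile over probes above background on all 6 arrays, the ratios, other filters, an intensity trend, the methods' test with adjustment, a 2 fold threshold, the mean of a gene's probes and leaving out each array.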

Additional observations from a re-analysis of the deposited data

How the results depend on the processing

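The sign of the difference of each of the 10 troponin probes was the same under every alternative run. The probes higher (23) and lower (4) among all tested became 95 and 49 with the replicate block, 223 and 89 with the slide block, 43 and 7 with normexp, 38 and 7 with an intensity trend, 11 higher with quantile normalization, 12 with the percentile over probes above background on all 6 arrays, 10 with the ratios, 1 and 0 with no filter, and 0 and 0 with the methods' test after adjustment. Leaving out 1 array gave 0 to 1 in each direction. The number of troponin genes higher was 1 and became 3 with the slide block. It was 0 with quantile normalization, that percentile, the ratios, no filter, the methods' test after adjustment and each array left out (range 0 to 0), and the number lower was 0 throughout. The genes higher by the selection of the methods, 6, were 2 with a 2 fold threshold and 5 with the ratios. They were 2 without pre-heartbeat replicate 1, post-heartbeat replicate 1 or post-heartbeat replicate 2, 3 without pre-heartbeat replicate 3 or post-heartbeat replicate 3, and 6 without pre-heartbeat replicate 2 (range 2 to 6). Thin filament partners higher numbered 2 with the replicate block, 7 with the slide block and 1 with a trend. Calcium supply genes higher, 3, numbered 6 with the slide block, 0 with no filter or with the methods' test, and 0 to 0 when an array was left out. Kinases higher numbered 1 with the slide block. Without pre-heartbeat replicate 1 the median of the thin filament partners was 0.33 (range over left-out arrays 0.33 to 0.75). The median of the kinases, 0.03, turned to -0.0218 and -0.00578 without pre-heartbeat replicate 1 and post-heartbeat replicate 3 (range -0.0218 to 0.0882), and the Tnni1 over Tnni2 difference, 0.03, to -0.021 without post-heartbeat replicate 3 (range -0.021 to 0.0871). The causes of these changes were not tested. Arrays of the same replicate number deviated together in 2 of 3 pairs (r = 0.648, -0.277 and 0.494), and 3 of 6 arrays correlated best with their own number, so the numbers were not taken as pairs. With the replicate block Tnni3 had 1.39 (limma adjusted p = 0.0235), the number of troponin genes higher stayed 1, and Tnnt1 had limma adjusted p of 0.0526 and 0.0575. With 3 arrays per group, log2 fold changes of up to 1.13 (Tnnc2) were not called among the troponin probes without the slide.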
